A study of Rattus norvegicus with 16 samples.

Results

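The comparison set the limb that carried a cement spacer against the limb whose defect was left empty, over both tissues sampled from each limb. All 16 of the 16 libraries of the series entered it, 8 from spacer limbs and 8 from empty limbs, chosen by their sample labels alone. The animals were 4 Sprague-Dawley rats with a plated osteotomy in each of a pair of limbs, and tissue was taken after 4 weeks. On the spacer side, the libraries came from the membrane that formed around the polymethyl methacrylate (PMMA) spacer, labelled IM, and from the bone next to that spacer, labelled PMMA. On the empty side, they came from the tissue of the unfilled defect, labelled pre-fibrous non-union or PFNU, and from the bone next to that defect, labelled BNED. Each of these groups held 4 libraries, 1 from each rat, and all carried the osteotomy and the plate, so no group was unoperated. For the age and sex of the animals, any batch of library preparation and the choice of side for the spacer, the labels give nothing. The spacer was given to a limb, not to a tissue, so the 2 libraries of a limb share its surgery and 4 limbs stood against 4.

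In the Masquelet technique a cement spacer is placed in a bone defect, a vascular fibrous sheath forms around it, and bone graft is later packed inside that sheath. The sheath is known as a collagen-rich tissue with blood vessels and cells that secrete growth factors, whereas a defect left empty tends to fill with muscle, scar and fibrous tissue and to end in non-union. Bone beside a defect holds marrow, where red cells, granulocytes and B cells develop, next to osteoblasts, osteocytes and osteoclasts. In bulk tissue of this kind, fewer cells of a type and less RNA per cell cannot be told apart.

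Total counts per library ran from 40472228 to 76815879 over 14476 genes, of which 12857 passed the filter on low counts and were tested. Levels are CPM, counts relative to the size of the library after TMM scaling, and the 4 values of a group are given in the order of rats 1 to 4. The bone label held for osteocalcin (Bglap), which read 914 to 2689 CPM in the bone libraries and 10.1 to 864 CPM in defect tissue. The 864 CPM was that of the membrane of rat 3, close to the lowest bone library. Osteocyte markers took 0.146% of the counts in that membrane and 0.0185 to 0.0539% in the other membranes. Other libraries also stood apart from their group. The erythroid markers took 8.39% of the counts in bone beside the spacer of rat 1, against 0.467 to 1.42% in the 3 other rats and 4.43 to 7.78% beside the empty defect. In the membrane, the share of fast skeletal muscle markers was 2.56 and 4.66% in rats 1 and 2 but 18.5 and 24.1% in rats 3 and 4, beside 7.0 to 16.8% in empty-defect tissue. Cartilage markers took 1.03% of the counts in bone beside the empty defect of rat 4 and 0.103 to 0.398% in the other rats of that group. Symbols are those of the deposited table, and near-identical family members (defensins, globins, myosin heavy chains) may have shared reads.

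A broad set of genes differed between the limbs in the same direction in membrane or defect and in bone. With tissue as a factor and the rat as a block, 765 genes were higher in the spacer limb and 339 were lower at an adjusted p under 0.05 (edgeR), which is 5.95% and 2.64% of the genes tested and 8.59% together. All 1104 had the same sign in both tissues, which the pooled test favours by its design, so it is no separate support. Of these, 714 also had an unadjusted p under 0.05 in each tissue on its own, and these are called genes that moved the same way: 496 were higher (3.86% of those tested) and 218 lower (1.7%), or 5.55% in all. The median log2 fold change was 0.88 for those higher and -1.26 for those lower, against -0.0098 over all genes tested. Another 285 called genes did not pass 0.05 in the defect and 105 did not pass it in bone. Counts of called list members below are to be read beside the shares of 5.95% higher and 2.64% lower over all genes tested.

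**Figure D1:**
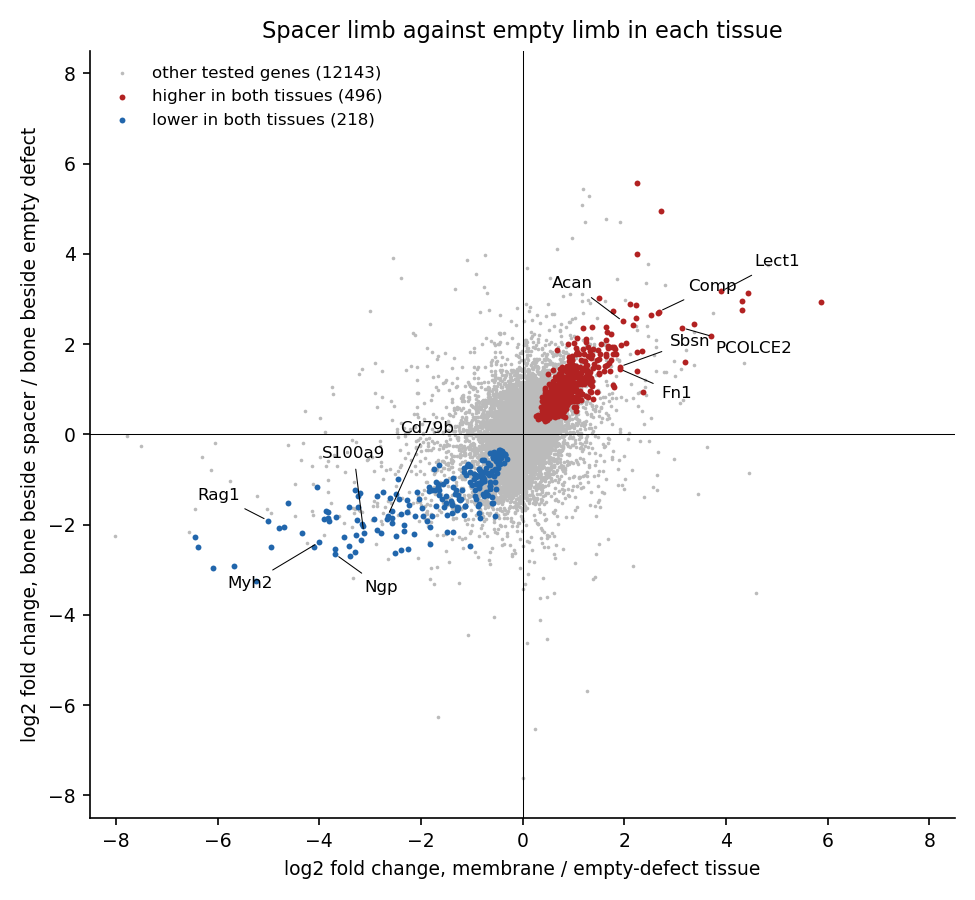
Log2 fold change of spacer limb over empty limb in the defect (x axis, membrane over empty-defect tissue) and in bone (y axis, beside the spacer over beside the empty defect), 1 point per gene tested, with the 496 genes higher in both tissues in red, the 218 lower in both in blue and all other genes in grey. Rag1, Ngp, S100a9 and Myh2 lie in the lower left corner, and Lect1, Comp, Acan and PCOLCE2 in the upper right.

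The tissues taken one at a time gave fewer calls. In the defect 47 genes were called (10 higher and 37 lower, 0.366% of those tested, and 111 without the rat block), in bone 454 (308 higher and 146 lower, 3.53%), and 16 in both. Pooling the tissues thus called 795 genes that neither tissue called alone. The difference of the spacer effect between the tissues was called for 0 genes by edgeR, where the smallest adjusted p was 0.0655 and 1263 genes had an unadjusted p under 0.05. The same test called 194 genes with DESeq2 and 0 with limma-voom, so equal effects in both tissues were not shown. Of the 714 genes that moved the same way, 27 had an unadjusted interaction p under 0.05.

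The pairs of libraries that went into this choice are described next, and since they chose the genes they are no separate support. Of the 496 higher genes, 395 were higher in all 8 within-rat pairs of libraries, a pattern that 5.72% of all genes tested showed, and 125 had no overlap between the groups in either tissue, which 1.13% of all genes showed. Of the 218 lower genes, 157 were lower in all 8 pairs (2.97% of all genes) and 67 had no overlap in either tissue (0.599%). The median of the higher genes within a pair ran from 0.450 (the defect of rat 3) to 1.2 (the defect of rat 2), and that of the lower genes from -0.636 (the bone of rat 1) to -1.62 (the bone of rat 3).

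The number of calls rested on a few animals and on what else was in the model. Without rat 3, 0 genes were called (2378 had an unadjusted p under 0.05), and without rat 2 only 2 were higher and 8 lower. Without rat 4 there were 142 higher and 44 lower genes, and without rat 1 there were 577 and 596. Averaging the 2 tissues of a limb first, so that 4 limbs stood against 4, left 351 higher and 214 lower genes, among them 222 of the 496 and 115 of the 218. With the erythroid markers as a covariate 0 genes were called and 697 had an unadjusted p under 0.05, and with the skeletal muscle markers as a covariate 618 were higher and 769 lower. DESeq2 called 1246 higher and 977 lower genes, a more even split than edgeR gave. The erythroid share was lower in the spacer limb in 7 of the 8 pairs, so this covariate and the limb can hardly be told apart. Each count of genes from a list below was 0 without rat 3 and with the erythroid covariate, and 0 without rat 2 except for 1 B cell gene.

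**Figure D2:**
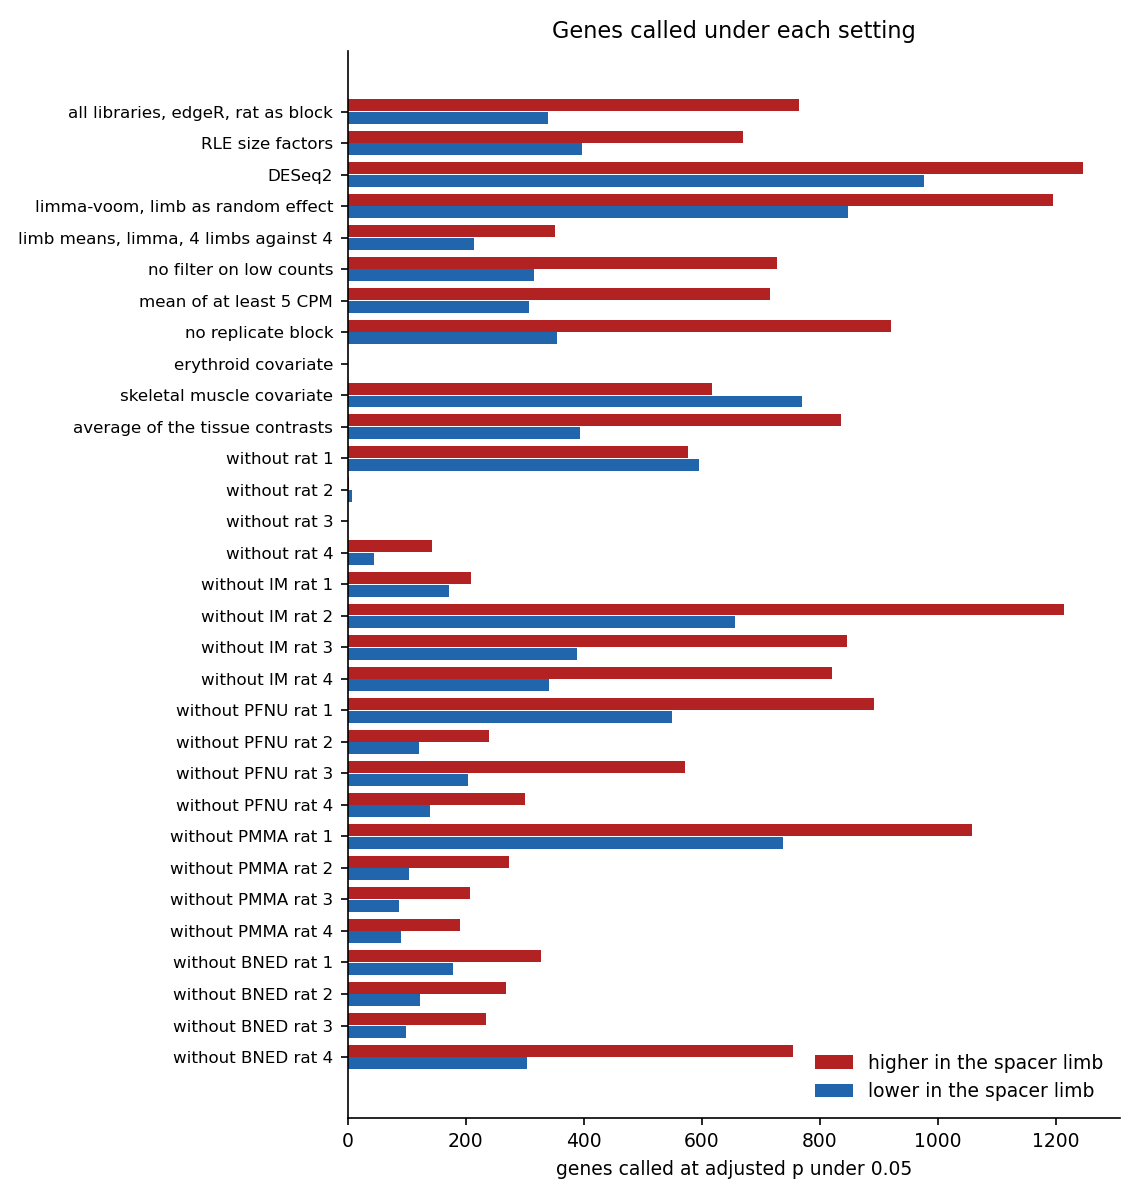
Number of genes called at an adjusted p under 0.05 (x axis) as higher (red) or lower (blue) in the spacer limb under each setting (y axis), starting with all 16 libraries in edgeR and ending with single libraries left out. Bars reach 1246 higher genes with DESeq2 and are absent without rat 3 and with the erythroid covariate.

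Single libraries also moved the counts. Leaving out the membrane of rat 1 gave 209 and 172 higher and lower genes, and leaving out that of rat 2 gave 1213 and 657. Without the empty-defect tissue of rats 1 to 4 in turn, there were 892 and 549, 239 and 120, 572 and 204, and 301 and 139 such genes. Without the bone beside the spacer of rat 1, where erythroid counts were high, there were 1058 and 737, and without that of rats 2, 3 and 4 there were 273 and 103, 207 and 87, and 190 and 90. Without the bone beside the empty defect of rats 1, 2 and 3 there were 328 and 179, 268 and 123, and 234 and 98. The fewest calls of any single left-out library came without the bone beside the spacer of rat 4.

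Genes of the fibrous extracellular matrix were higher in the spacer limb. Of 15 tested genes for interstitial collagens, fibronectin and fibroblast surface proteins, 10 rose and 0 fell, 7 of them in both tissues, and the median log2 fold change of the list was 1.13 (0.90 in the defect and 1.54 in bone), against -0.0098 over all genes. Fibronectin, Fn1, the glycoprotein on which new matrix is laid down, read 22169, 9921, 7048 and 4634 CPM in the membrane and 3593, 2485, 3339 and 1809 CPM in empty-defect tissue. In bone it read 2226, 5385, 3700.0 and 4429 CPM beside the spacer and 823, 1247, 1132 and 2573 CPM beside the empty defect. All 4 membranes were above all 4 empty-defect samples, while in bone the lowest value beside the spacer (rat 1) fell under the highest beside the empty defect (rat 4), and the pooled difference was called (log2 fold change 1.68 ± 0.38 (SE), adjusted p = 0.0230). With the mean of each limb its adjusted p was 0.0541.

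Col5a3, a chain of the collagen V that starts fibril assembly, read 1436, 650.0, 501 and 334 CPM in the membrane and 282, 237, 193 and 163 CPM in empty-defect tissue. In bone the values were 142, 315, 328 and 210.0 CPM beside the spacer and 77.1, 116, 69.3 and 85.5 CPM beside the empty defect. The groups did not overlap in either tissue, with 1.67 ± 0.39 in the defect and 1.54 ± 0.38 in bone (pooled log2 fold change 1.60 ± 0.26 (SE), adjusted p = 0.00945). Col16a1, a fibril-associated collagen, had a log2 fold change of 1.61 ± 0.34, adjusted p = 0.0171, and Col5a1 one of 1.45 ± 0.33, adjusted p = 0.0236. Fap and Pdgfra, surface proteins of activated and resident fibroblasts, rose by less, 0.91 ± 0.21, adjusted p = 0.0231 and 0.58 ± 0.15, adjusted p = 0.0330. Col3a1, Col14a1 and Thy1 were called but did not pass 0.05 in both tissues. Col1a1, the most abundant collagen chain, was not called (1.06 ± 0.37, adjusted p = 0.0925). Its levels were 39679.8, 14323, 46919 and 7363 CPM in the membrane and 13315, 8923, 23116 and 10744 CPM in empty-defect tissue, and 50572, 72098, 79289 and 77472 CPM beside the spacer and 28305, 17386, 43824 and 37297 CPM beside the empty defect, with no overlap in bone and overlap in the defect. The list count fell to 1 without the membrane of rat 1 or the bone beside the spacer of rat 4, and was 1 with the muscle covariate and 7 with limb means.

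The enzymes and chaperones that make collagen rose with it. Of 19 tested genes of collagen folding, hydroxylation and trimming, 15 rose and 0 fell, 8 in both tissues (median 0.97). Serpinh1 encodes HSP47, the chaperone that holds procollagen in the endoplasmic reticulum. It read 1916, 1638, 1468 and 861 CPM in the membrane and 829, 576, 868 and 576 CPM in empty-defect tissue, and 1034, 1825, 2145 and 1868 CPM beside the spacer and 633, 487, 812 and 736 CPM beside the empty defect in bone. Every rat had more in the spacer limb in both tissues, with overlap in the defect only because the membrane of rat 4 lay just under 1 empty-defect value (log2 fold change 1.21 ± 0.22 (SE), adjusted p = 0.0106). Pcolce and PCOLCE2 encode enhancers of procollagen C-proteinase, and Adamts2 encodes the N-proteinase. Their log2 fold changes were 1.07 ± 0.22, adjusted p = 0.0152, 2.76 ± 0.58, adjusted p = 0.0170 and 1.05 ± 0.20, adjusted p = 0.0129. The prolyl hydroxylases P4ha1, P4ha2 and P4ha3 were at 0.85 ± 0.19, adjusted p = 0.0221, 0.97 ± 0.24, adjusted p = 0.0275 and 1.55 ± 0.42, adjusted p = 0.0405, of which P4ha1 alone passed in both tissues. Bmp1, the C-proteinase itself, was called as well (0.88 ± 0.24, adjusted p = 0.0406), whereas Plod2 (0.73 ± 0.30, adjusted p = 0.141) and Leprel1 (-0.03 ± 0.29, adjusted p = 0.963) were not. The count stayed at 14 with limb means, fell to 3 with the muscle covariate, and was 4 without the membrane of rat 1, the empty-defect tissue of rat 2, the bone beside the spacer of rat 4 or the bone beside the empty defect of rat 3.

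Elastic fibre and crosslinking genes moved likewise. Of 20 tested, 12 rose and 0 fell, 7 in both tissues, and all 20 had a positive log2 fold change (median 0.91). Loxl2, an oxidase that crosslinks collagen and elastin, read 301, 167, 157 and 103 CPM in the membrane and 105, 65.2, 83.2 and 54.9 CPM in empty-defect tissue. Its values were 54.4, 129, 91.0 and 125 CPM beside the spacer and 26.1, 32.2, 35.3 and 36.1 CPM beside the empty defect in bone. All 4 rats were higher in the spacer limb in both tissues, and bone showed no overlap (log2 fold change 1.43 ± 0.25 (SE), adjusted p = 0.00991). Loxl1 (1.14 ± 0.20, adjusted p = 0.0106), the microfibril protein Mfap2 (1.40 ± 0.24, adjusted p = 0.00966) and the latent TGF-beta binding protein Ltbp3 (0.95 ± 0.18, adjusted p = 0.0129) also moved the same way. Lox, the founding member of the oxidases, was called (1.07 ± 0.29, adjusted p = 0.0405) but not in each tissue, and elastin itself, Eln, was not (0.96 ± 0.39, adjusted p = 0.134). The count was 9 with limb means, and 5 without the empty-defect tissue of rat 2, the bone beside the spacer of rat 2 or 4, or the bone beside the empty defect of rat 1.

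**Figure D3:**
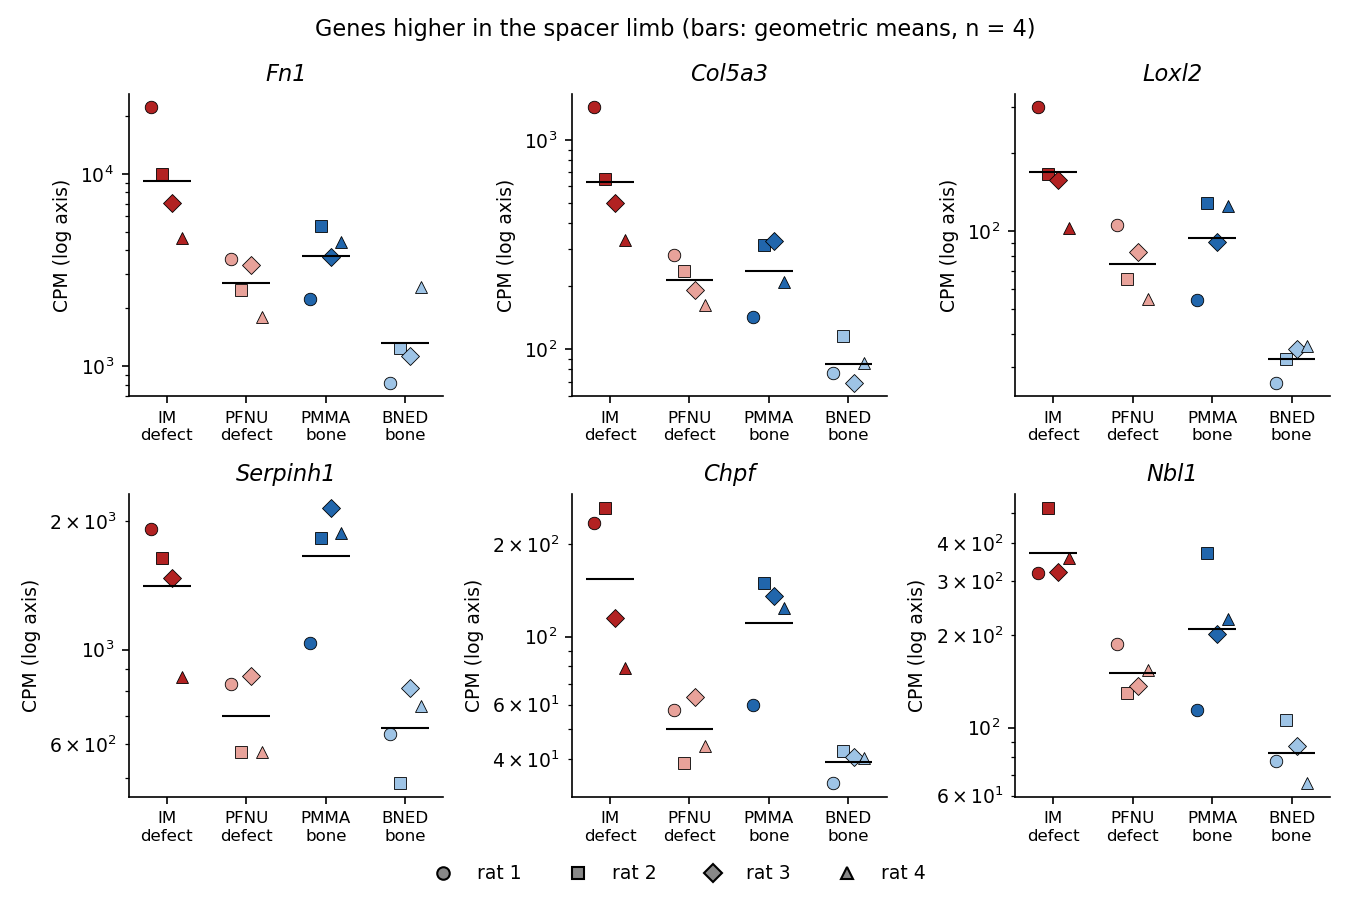
CPM on a log axis of 6 genes that were higher in the spacer limb, in the membrane (IM), the empty-defect tissue (PFNU), bone beside the spacer (PMMA) and bone beside the empty defect (BNED), with 1 symbol per rat and the geometric mean of 4 libraries as a bar. For Col5a3, Chpf and Nbl1 no spacer value falls under an empty value of the same tissue.

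Proteoglycans followed the collagens. Small leucine-rich proteoglycans bind collagen fibrils and space them, and 5 of 9 tested rose and 0 fell, 3 in both tissues (median 1.2). Biglycan, Bgn, read 5754, 3667, 3569 and 1905 CPM in the membrane and 2343, 1392, 2699.9 and 1284 CPM in empty-defect tissue. The bone libraries held 2220.3, 4317, 3292 and 3546 CPM beside the spacer and 919, 903, 1392 and 1768 CPM beside the empty defect, without overlap. The pooled change was 1.2 ± 0.29, adjusted p = 0.0275. Decorin, Dcn, had no overlap in either tissue but did not pass the threshold in bone, and its pooled change was 0.83 ± 0.21, adjusted p = 0.0314. The largest change of the list was that of Epyc (2.85 ± 0.62, adjusted p = 0.0196), a proteoglycan of growing cartilage whose mean was only 1.05 CPM. The count was 0 without the bone beside the spacer of rat 3 or 4 or the bone beside the empty defect of rat 3, and 0 with the muscle covariate.

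The enzymes that build glycosaminoglycan chains on such proteins were partly higher, 9 of 23 tested, 0 lower, 7 in both tissues (median 0.59). Chpf, the chondroitin polymerising factor, read 234, 263, 115 and 79.2 CPM in the membrane and 57.5, 38.7, 63.8 and 44.1 CPM in empty-defect tissue, and 59.7, 149, 136 and 124 CPM beside the spacer and 33.4, 42.3, 40.6 and 40.2 CPM beside the empty defect in bone. The groups did not overlap in either tissue with 1.70 ± 0.37 in the defect and 1.57 ± 0.37 in bone (pooled log2 fold change 1.64 ± 0.25 (SE), adjusted p = 0.00702). B3gat3, which completes the linker between protein and chain, also rose (0.65 ± 0.11, adjusted p = 0.0106), as did the sulfotransferase Chst12 (0.72 ± 0.14, adjusted p = 0.0120). Gfpt2, the entry enzyme of hexosamine synthesis, was at 1.42 ± 0.27, adjusted p = 0.0120, and its paralogue Gfpt1 at 0.16 ± 0.11, adjusted p = 0.353, not called. The count was 5 with limb means and between 5 and 13 with any 1 library left out.

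Matricellular proteins, which sit in the matrix and modulate cell contact rather than bear load, showed 7 of 17 tested higher and 0 lower, 3 in both tissues (median 1.01). Tgfbi, an adhesion protein induced by TGF-beta, read 1265, 921, 376 and 359.9 CPM in the membrane and 270.3, 204, 193 and 146 CPM in empty-defect tissue. Its bone values were 208, 409, 344 and 273 CPM beside the spacer and 104, 144, 119 and 198 CPM beside the empty defect. No library overlapped in either tissue (log2 fold change 1.44 ± 0.29 (SE), adjusted p = 0.0145). Wisp2 also moved the same way (1.42 ± 0.31, adjusted p = 0.0183), and Thbs2 (1.73 ± 0.46, adjusted p = 0.0346) and Postn (1.02 ± 0.28, adjusted p = 0.0425) were called without passing in both tissues. Sparc (0.97 ± 0.30, adjusted p = 0.0640), Ctgf (1.15 ± 0.34, adjusted p = 0.0547) and Tnc (1.02 ± 0.33, adjusted p = 0.0683) were not called. The count was 7 with limb means, 1 without the membrane of rat 1, the bone beside the spacer of rat 4 or the bone beside the empty defect of rat 2, 13 without the membrane of rat 4, and 14 with DESeq2.

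Of 23 tested matrix proteases and inhibitors, 8 rose and 1 fell, with 6 and 1 in both tissues (median 0.75). The gelatinase Mmp2 (1.29 ± 0.27, adjusted p = 0.0179), its membrane-bound activator Mmp14 (1.40 ± 0.28, adjusted p = 0.0140) and the inhibitors Timp1 (1.26 ± 0.33, adjusted p = 0.0330) and Timp2 (1.24 ± 0.24, adjusted p = 0.0120) were all higher. Timp2 read 1277, 826, 737 and 501 CPM in the membrane and 477, 305, 526 and 318 CPM in empty-defect tissue, and 369, 921, 657 and 511 CPM beside the spacer and 179.9, 226, 226 and 248 CPM beside the empty defect in bone, with overlap in the defect only. The 1 that fell was Mmp8, the neutrophil collagenase, given with the marrow genes. Mmp13, the collagenase of hypertrophic cartilage and osteoblasts, was at 0.23 ± 0.36, adjusted p = 0.714, and Mmp3, though at 2.54 ± 0.96, adjusted p = 0.112, was not called. The count of higher genes was 3 without the membrane of rat 1 or the bone beside the spacer of rat 4, and 8 with limb means.

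Other marker lists were also set beside the matrix lists. In bone, the osteoblast markers took 6.75 to 10.4% of the counts beside the spacer and 2.55 to 6.44% beside the empty defect, with no overlap, while in the defect they took 0.552 to 4.39% and 0.913 to 3.21%. Most abundant in that list in every library was Col1a1, the collagen already given with the fibrous matrix. Slow muscle markers, a list that also holds the fast oxidative myosin Myh2, took 0.0531 to 0.118% in the membrane and 0.415 to 1.28% in empty-defect tissue. They did not overlap there and overlapped in bone. The fast muscle markers took 0.135 to 0.862% beside the spacer and 0.418 to 3.86% beside the empty defect, where the groups overlapped. With the muscle covariate the log2 fold change of Fn1 was 1.06 (adjusted p = 0.114) and that of Col5a3 1.46 (adjusted p = 0.0289). With the erythroid covariate they were 0.72 and 0.75, with adjusted p-values of 0.903 and 0.899. The part of the osteoblast markers in the matrix results was not tested.

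Cartilage genes led the increases. Of 14 tested cartilage markers 5 rose and 0 fell, 4 in both tissues, and the median was 2.13 (1.99 in the defect and 2.32 in bone), the highest of the 34 lists. Comp, a matrix protein that links cartilage and tendon collagens, read 491, 141, 147 and 193 CPM in the membrane and 33.0, 34.2, 64.1 and 23.6 CPM in empty-defect tissue. In bone its levels were 82.4, 299.5, 278 and 695 CPM beside the spacer and 3.89, 15.1, 30.5 and 285 CPM beside the empty defect. The membranes lay above all empty-defect samples, and in bone the empty side of rat 4 lay above 2 of the spacer libraries (log2 fold change 2.70 ± 0.68 (SE), adjusted p = 0.0300). Lect1 encodes chondromodulin, a glycoprotein that keeps cartilage free of vessels. It read 0.0768, 1.46, 7.63 and 14.8 CPM in the membrane and 0.0649, 0.234, 0.228 and 0.327 CPM in empty-defect tissue, so that the membrane of rat 1 was as low as the empty defects. Bone had 4.67, 14.9, 28.4 and 72.5 CPM beside the spacer and 0.0173, 0, 4.81 and 56.6 CPM beside the empty defect, with 1 library at 0, and the pooled test gave log2 fold change 3.50 ± 0.91 (SE), adjusted p = 0.0330. Each rat was still higher in its spacer limb in both tissues, but in the defect of rat 1 this was 4 counts against 3. Bone beside the empty defect held only 1 and 0 counts in rats 1 and 2, so the fold change of Lect1 is uncertain.

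The link protein Hapln1, which ties aggrecan to hyaluronan, changed by 2.48 ± 0.61, adjusted p = 0.0283, and aggrecan, Acan, by 2.23 ± 0.59, adjusted p = 0.0346. Col2a1, the collagen that defines cartilage, had a log2 fold change of 3.18 but a standard error of 1.03 and was not called (adjusted p = 0.0721). Sox5 and Sox6, transcription factors of chondrocytes, were at 0.54 ± 0.32, adjusted p = 0.297 and -0.24 ± 0.65, adjusted p = 0.847. Cilp2, of the cartilage intermediate layer family, was at 2.01 ± 0.40, adjusted p = 0.0138. The 5 calls became 9 without the bone beside the empty defect of rat 4, where cartilage markers were high, 10 with limb means, 0 with the muscle covariate, and 0 without the membrane of rat 1, the bone beside the spacer of rats 2, 3 or 4 or the bone beside the empty defect of rat 3.

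Among secreted regulators of the BMP and TGF-beta family, 4 of 15 genes in the ligand list and 4 of 15 antagonists were called higher. Over all genes tested, 5.95% were called higher. The 4 called in the ligand list include Bmp1, the procollagen C-proteinase given above, which is not a ligand of this family. Activins and TGF-betas signal through SMAD2 and SMAD3 and BMPs through SMAD1 and SMAD5, and secreted antagonists bind the ligands. Of the 15 tested genes in the ligand list, Bmp1 included, 4 rose and 0 fell, 2 in both tissues (median 0.36). Inhba, the subunit of activin A, read 20.8, 8.67, 3.76 and 3.44 CPM in the membrane and 4.00, 2.90, 3.09 and 1.40 CPM in empty-defect tissue. For bone the values were 4.13, 10.7, 20.8 and 5.29 CPM beside the spacer and 1.06, 1.42, 2.51 and 2.67 CPM beside the empty defect, where the groups did not overlap (log2 fold change 1.95 ± 0.45 (SE), adjusted p = 0.0231). Inhbb, the subunit of activin B, moved the same way (1.13 ± 0.28, adjusted p = 0.0295). Tgfb3 was called (0.99 ± 0.23, adjusted p = 0.0233) with 0.47 ± 0.25 in the defect and 1.5 ± 0.25 in bone, and had an unadjusted interaction p of 0.0122. Tgfb1 (0.57 ± 0.17, adjusted p = 0.0554) was higher in 8 of 8 pairs without being called. Bmp2, the ligand most used to induce bone, was not called (-0.41 ± 0.28, adjusted p = 0.368), with -1.06 ± 0.32 in the defect and 0.20 ± 0.31 in bone. The count of the ligand list was 4 with limb means. It was 0 without the empty-defect tissue of rat 2 or the bone beside the spacer of rats 2, 3 or 4. The same held without the bone beside the empty defect of rats 2 or 3.

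Of 15 antagonists 4 rose and 0 fell, 3 in both tissues (median 0.46), where 5.95% of all genes tested rose and 2.64% fell. Nbl1, or DAN, which binds BMPs, read 319, 521, 322 and 359 CPM in the membrane and 187, 129, 136 and 154 CPM in empty-defect tissue. Its values were 114, 371, 202 and 227 CPM beside the spacer and 77.6, 106, 87.0 and 65.9 CPM beside the empty defect in bone. No spacer value fell below an empty value in either tissue (log2 fold change 1.32 ± 0.19 (SE), adjusted p = 0.00564). Fstl1 (0.93 ± 0.20, adjusted p = 0.0178) and the activin binder Fstl3 (1.51 ± 0.37, adjusted p = 0.0283) moved the same way, while noggin, Nog (-0.86 ± 0.55, adjusted p = 0.330), follistatin, Fst (-0.27 ± 0.30, adjusted p = 0.597), and gremlin, Grem1 (0.04 ± 0.33, adjusted p = 0.960), were not called. The count was 3 with limb means, 7 without the empty-defect tissue of rat 1 and 1 without the membrane of rat 1 or the bone beside the spacer of rat 4.

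Of 23 tested Wnt ligands, antagonists and targets 3 rose and 0 fell, where 5.95% of all genes tested rose and 2.64% fell. Dkk3, a secreted member of the dickkopf family, read 306, 292, 189 and 89.2 CPM in the membrane and 136, 70.4, 154 and 77.8 CPM in empty-defect tissue, and 143, 337, 221 and 233 CPM beside the spacer and 57.7, 71.2, 79.4 and 86.3 CPM beside the empty defect in bone. It overlapped in the defect and not in bone (log2 fold change 1.31 ± 0.28 (SE), adjusted p = 0.0192). Wnt5a (0.86 ± 0.20, adjusted p = 0.0231) moved the same way, and Wnt5b (1.07 ± 0.26, adjusted p = 0.0275) was called with 0.54 ± 0.31 in the defect and 1.58 ± 0.31 in bone. The target genes Axin2 (-0.34 ± 0.28, adjusted p = 0.468) and Lef1 (-0.89 ± 0.34, adjusted p = 0.115) and the osteocyte inhibitor Sost (0.08 ± 0.67, adjusted p = 0.951) were not called. The 3 calls became 5 without the membrane of rat 2 or the empty-defect tissue of rat 1, 1 with limb means and 0 without the membrane of rat 1, the bone beside the spacer of rat 4 or the bone beside the empty defect of rat 2 or 3.

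Of 26 growth factors and binding proteins 4 rose and 0 fell, where 5.95% of all genes tested rose and 2.64% fell. Pdgfc, a mitogen for mesenchymal cells, rose in both tissues without overlap (0.79 ± 0.15, adjusted p = 0.0116), with levels of 8.53 to 16.9 CPM in the membrane against 6.35 to 7.87 CPM in empty-defect tissue. The IGF binding proteins Igfbp6 (1.42 ± 0.35, adjusted p = 0.0282) and Igfbp4 (0.68 ± 0.19, adjusted p = 0.0405) also rose in both, and Igfbp2 (1.61 ± 0.41, adjusted p = 0.0319) in the pooled test. Vegfa, the main angiogenic ligand, was not called (-0.16 ± 0.39, adjusted p = 0.824), and 3 of 8 pairs had the sign of the pooled value, with -0.91 ± 0.48 in the defect and 0.53 ± 0.46 in bone. The count was 9 without the empty-defect tissue of rat 1 and 8 with DESeq2 or limma-voom. It was 1 with limb means, and 1 without the membrane of rat 1, the empty-defect tissue of rat 2 or 4, the bone beside the spacer of rats 2, 3 or 4 or the bone beside the empty defect of rat 3.

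Immediate early genes, transcribed within minutes of a stimulus, showed 5 of 16 tested higher and 0 lower, 4 in both tissues (median 0.40). The share called higher over all genes tested was 5.95%. Junb changed by 0.99 ± 0.18, adjusted p = 0.0107, Fos by 0.93 ± 0.21, adjusted p = 0.0230, Fosb by 1.24 ± 0.31, adjusted p = 0.0300 and Ier3 by 0.60 ± 0.13, adjusted p = 0.0178, while Egr1 (0.52 ± 0.26, adjusted p = 0.224), Jun (0.17 ± 0.22, adjusted p = 0.671) and Atf3 (-0.12 ± 0.23, adjusted p = 0.774) were not called. Fos was higher in only 6 of 8 pairs, the 2 others being the defect and the bone of rat 4. Hypoxia and glycolysis genes showed 4 of 16 higher and 0 lower, against the same 5.95% over all genes tested, with a median of 0.04. The carbonic anhydrase Car9 (1.65 ± 0.35, adjusted p = 0.0178) and adrenomedullin, Adm (0.89 ± 0.22, adjusted p = 0.0283), rose in both tissues, and Ldha (-0.02 ± 0.33, adjusted p = 0.981), Pgk1 (0.09 ± 0.27, adjusted p = 0.858) and Slc2a1 (0.71 ± 0.37, adjusted p = 0.242) were not called. Both counts were 1 with limb means. That of immediate early genes was 2 without the empty-defect tissue of rat 2, the bone beside the spacer of rat 2 or 3 or the bone beside the empty defect of rats 1, 2 or 3, and that of hypoxia genes 0 without the bone beside the spacer of rat 4.

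Markers of pericytes and smooth muscle, a list of contractile and other genes, showed 4 of 14 higher and 0 lower, 2 in both tissues (median 0.72). Over all genes tested, 5.95% were called higher. Tagln, an actin-binding protein of smooth muscle and myofibroblasts, read 720.1, 1385, 390.1 and 675 CPM in the membrane and 455, 311, 329 and 289 CPM in empty-defect tissue. Bone libraries gave 96.1, 326, 293 and 306 CPM beside the spacer and 71.0, 115, 57.3 and 54.2 CPM beside the empty defect. The value of rat 1 beside the spacer was the lowest of its group and overlapped the empty side. In the defect the membrane of rat 3 lay under the empty-defect tissue of rat 1, so both tissues overlapped. The pooled difference of Tagln was called (log2 fold change 1.44 ± 0.29 (SE), adjusted p = 0.0145). Actg2 (1.45 ± 0.32, adjusted p = 0.0211) moved the same way, and Acta2, the actin of myofibroblasts, was called in the pooled test (1.09 ± 0.31, adjusted p = 0.0460). So was Cspg4 (adjusted p = 0.0396), which is not a contractile gene. The count was 7 without the empty-defect tissue or the bone beside the spacer of rat 1, 9 with the muscle covariate and 8 with DESeq2. It was 3 with limb means and 1 without the empty-defect tissue of rat 2 or 4, the bone beside the spacer of rat 3 or the bone beside the empty defect of rat 2 or 3.

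Some of the most even differences were in genes of other kinds. Ecm1, a secreted matrix glycoprotein, read 236, 239, 223 and 258 CPM in the membrane and 131, 78.6, 77.5 and 70.2 CPM in empty-defect tissue. In bone it read 41.8, 111, 80.0 and 88.6 CPM beside the spacer and 21.0, 33.6, 24.4 and 29.8 CPM beside the empty defect. It had no overlap in either tissue and its error was small (log2 fold change 1.48 ± 0.19 (SE), adjusted p = 0.00381). Sbsn, suprabasin, known from the epidermis, read 11.2, 34.0, 12.6 and 9.54 CPM in the membrane and 3.81, 5.75, 3.03 and 3.92 CPM in empty-defect tissue, and 3.29, 6.6, 4.53 and 5.93 CPM beside the spacer and 1.02, 1.84, 1.98 and 2.23 CPM beside the empty defect in bone, again without overlap (log2 fold change 1.71 ± 0.22 (SE), adjusted p = 0.00381). Podxl2, a sialomucin, changed by 0.80 ± 0.10, adjusted p = 0.00381, Vasn, a membrane protein that binds TGF-beta, by 1.21 ± 0.16, adjusted p = 0.00381, and Spon2, a matrix protein, by 1.25 ± 0.17, adjusted p = 0.00547. These 5 had the smallest p-values among the genes of at least 5 CPM that were higher in both tissues. Larger but more variable were Anxa8, an annexin (2.30 ± 0.56, adjusted p = 0.0283), Megf6, a protein with EGF repeats (2.26 ± 0.42, adjusted p = 0.0119), and Msln, or mesothelin, a surface protein of mesothelium (2.11 ± 0.52, adjusted p = 0.0294). Msln read 140.4, 101, 78.7 and 12.1 CPM in the membrane, the lowest in rat 4, and 0.398 to 8.83 CPM in bone.

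Markers of blood cell formation were lower in the spacer limb. Of 16 tested B cell markers 13 fell and 0 rose, 11 in both tissues, with a median of -2.28 (-2.89 in the defect and -1.77 in bone). Spib, a transcription factor of the B lineage, read 1.77, 3.31, 5.18 and 2.41 CPM in the membrane and 15.3, 30.3, 21.9 and 45.9 CPM in empty-defect tissue. The bone libraries held 129, 66.3, 82.2 and 147 CPM beside the spacer and 602, 407, 381 and 308 CPM beside the empty defect. The spacer limb was lower in every pair and the groups did not overlap in either tissue (log2 fold change -2.57 ± 0.34 (SE), adjusted p = 0.00381). Rag1 encodes a subunit of the recombinase that assembles antigen receptor genes in lymphocyte precursors. It read 0.345, 0.100, 0.135 and 0.217 CPM in the membrane and 1.21, 9.72, 2.70 and 12.0 CPM in empty-defect tissue, and 77.4, 22.5, 21.5 and 47.8 CPM beside the spacer and 187, 131, 131 and 121 CPM beside the empty defect in bone. Every spacer value lay below every empty value of its tissue. The change was -5.01 ± 0.73 in the defect and -1.91 ± 0.58 in bone, with an unadjusted interaction p of 0.00439 that became 0.291 on adjustment. The pooled change of Rag1 was -3.15 ± 0.64, adjusted p = 0.0151 and that of Rag2 -2.95 ± 0.56, adjusted p = 0.0120, where the membranes had only 9, 0, 5 and 1 counts.

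Blk, a kinase of B cell receptor signalling, read 2.21, 0.636, 1.85 and 1.52 CPM in the membrane and 4.50, 7.09, 4.36 and 9.64 CPM in empty-defect tissue. Its bone values were 36.6, 18.9, 19.96 and 30.5 CPM beside the spacer and 137, 85.4, 74.3 and 69.5 CPM beside the empty defect. Again no library overlapped in either tissue (log2 fold change -1.95 ± 0.24 (SE), adjusted p = 0.00381). The receptor subunit Cd79b changed by -2.22 ± 0.30, adjusted p = 0.00456, the surface protein Ms4a1 (CD20) by -2.48 ± 0.38, adjusted p = 0.00702, and the lineage factor Pax5 by -1.94 ± 0.35, adjusted p = 0.0114. Cd72 (-1.57 ± 0.19, adjusted p = 0.00381) and Fcrla (-1.90 ± 0.25, adjusted p = 0.00381), further B cell proteins outside the list, and Fam129c (-2.73 ± 0.40, adjusted p = 0.00580) fell to a like extent. Ebf1, a B lineage factor that stromal and fat cells also transcribe, was not called (-0.16 ± 0.21, adjusted p = 0.667). The count of 13 was 10 to 14 with any 1 library left out, 13 with limb means, 10 with the muscle covariate and 9 without rat 4. Of 15 tested T and NK cell markers edgeR called 1 lower, Cd3g (-1.17 ± 0.31, adjusted p = 0.0342), against 3 by DESeq2, 4 by limma-voom, 2 with limb means, 3 with the muscle covariate, 4 without the membrane of rat 2 and 0 without any of 12 other libraries.

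Neutrophil genes fell too, 11 of 18 tested, 0 higher, all 11 in both tissues (median -2.18). S100a9, a subunit of calprotectin, read 5.87, 8.70, 1.54 and 1.95 CPM in the membrane and 11.8, 43.7, 26.6 and 57.3 CPM in empty-defect tissue. In bone its levels were 265, 86.6, 118 and 98.3 CPM beside the spacer and 593, 673, 676 and 568 CPM beside the empty defect. No library overlapped, with each spacer limb lower in both tissues (log2 fold change -2.63 ± 0.44 (SE), adjusted p = 0.00966). Ngp, a granule protein made in marrow precursors, read 0.326, 0.586, 0.0578 and 0.178 CPM in the membrane and 0.584, 8.71, 2.80 and 3.71 CPM in empty-defect tissue, and 17.7, 19.6, 25.0 and 15.6 CPM beside the spacer and 129, 224, 159 and 43.2 CPM beside the empty defect in bone. The highest membrane value, that of rat 2, lay just over the lowest empty-defect value, that of rat 1, and bone did not overlap (log2 fold change -3.08 ± 0.44 (SE), adjusted p = 0.00566). Mmp8, the neutrophil collagenase, read 1.02, 0.669, 0.250 and 0.494 CPM in the membrane and 1.75, 5.57, 4.98 and 9.13 CPM in empty-defect tissue. Bone had 35.9, 6.04, 12.7 and 11.6 CPM beside the spacer and 46.6, 77.7, 58.2 and 40.7 CPM beside the empty defect, without overlap in either tissue (log2 fold change -2.54 ± 0.48 (SE), adjusted p = 0.0119).

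The primary granule genes Mpo (-2.17 ± 0.56, adjusted p = 0.0328), Elane (-2.19 ± 0.57, adjusted p = 0.0330) and Ctsg (-2.20 ± 0.57, adjusted p = 0.0330) fell too, as did Cxcr2, a receptor of mature neutrophils (-1.31 ± 0.37, adjusted p = 0.0425). Csf3r (-0.68 ± 0.28, adjusted p = 0.136), Ltf (-1.29 ± 0.89, adjusted p = 0.374) and Mmp9 (0.53 ± 0.45, adjusted p = 0.483), which osteoclasts also make, were not called. Elane read 0, 0.301, 0 and 0.0197 CPM and Ctsg 0.0192, 0.184, 0.0193 and 0.178 CPM in the membrane, so their fold changes rest on few counts. The defensins Np4, Defa5 and RatNP-3b were at -2.90, -2.85 and -3.03, values that may share reads between the 3 genes. Cd177, a neutrophil surface protein, had 1, 0, 0 and 0 counts in the membrane, 0, 55, 10 and 54 in empty-defect tissue, 145, 232, 388 and 217 beside the spacer and 1257, 3087, 1368 and 365 beside the empty defect. These are too few in the membrane for a fold change. The list count was 9 with limb means, at least 7 with any 1 library left out and 2 without rat 4.

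**Figure D4:**
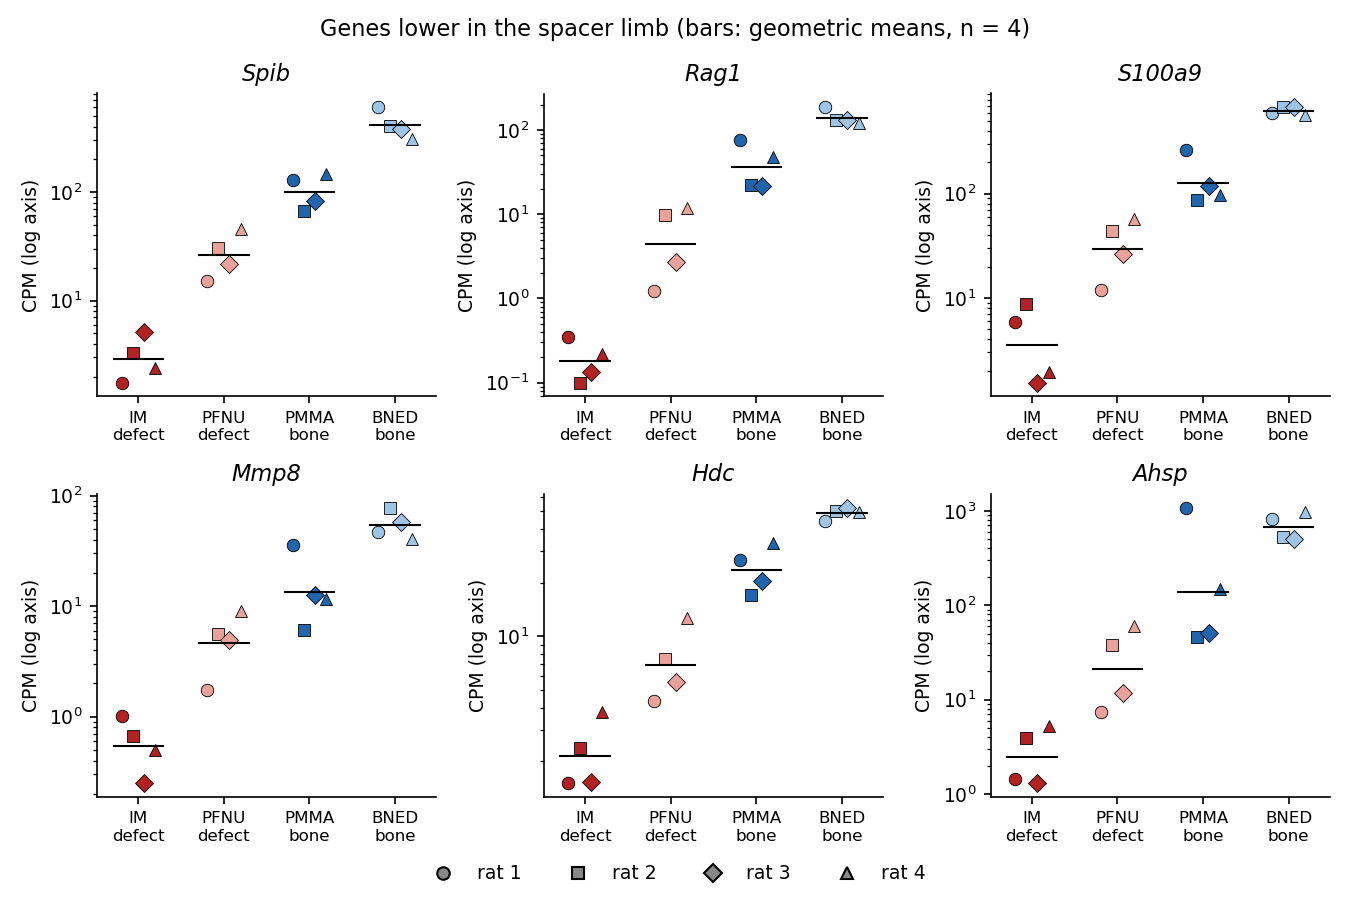
CPM on a log axis of 6 genes that were lower in the spacer limb, in the membrane (IM), the empty-defect tissue (PFNU), bone beside the spacer (PMMA) and bone beside the empty defect (BNED), with 1 symbol per rat and the geometric mean of 4 libraries as a bar. Spib, Rag1, S100a9, Mmp8 and Hdc do not overlap within a tissue, whereas the Ahsp value of rat 1 beside the spacer lies above all 4 values beside the empty defect.

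Mast cell and eosinophil genes showed 7 of 11 tested lower and 0 higher, 6 in both tissues (median -1.37). Hdc, the enzyme that makes histamine, read 1.52, 2.38, 1.54 and 3.79 CPM in the membrane and 4.37, 7.52, 5.59 and 12.7 CPM in empty-defect tissue. For bone the values were 26.6, 17.0, 20.3 and 33.4 CPM beside the spacer and 44.2, 50.5, 52.4 and 49.8 CPM beside the empty defect. Kit, the receptor for stem cell factor on mast cells and progenitors, read 8.60, 7.83, 12.5 and 17.8 CPM in the membrane and 23.1, 26.5, 25.7 and 26.0 CPM in empty-defect tissue, and 33.9, 24.1, 23.5 and 31.3 CPM beside the spacer and 52.7, 48.2, 52.5 and 46.2 CPM beside the empty defect in bone. Neither gene overlapped in either tissue, and the pooled change was -1.37 ± 0.20, adjusted p = 0.00578 for Hdc and -1.0 ± 0.16, adjusted p = 0.00751 for Kit. The mast cell receptor chain Ms4a2 (-1.51 ± 0.27, adjusted p = 0.0106) and the proteases Cpa3 (-1.51 ± 0.30, adjusted p = 0.0132) and Cma1 (-1.37 ± 0.29, adjusted p = 0.0180) fell as well. The eosinophil genes Epx (-2.02 ± 0.68, adjusted p = 0.0786) and Prg2 (-1.93 ± 0.57, adjusted p = 0.0506) were not called. The count was 8 with limb means, and 4 without the bone beside the spacer of rat 4.

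Of 16 tested erythroid genes 7 fell, 0 rose and none passed in both tissues (median -1.89). Ahsp, the chaperone of alpha globin, read 1.46, 3.90, 1.31 and 5.23 CPM in the membrane and 7.49, 38.2, 11.7 and 60.1 CPM in empty-defect tissue. Bone libraries gave 1077, 46.2, 50.8 and 149 CPM beside the spacer and 820.4, 533, 508 and 959 CPM beside the empty defect. The groups were apart in the defect, while in bone rat 1 had more beside the spacer (log2 fold change -2.56 ± 0.70 (SE), adjusted p = 0.0393). Without that library 15 of the 16 were called lower, and without any of 10 others, among them the membrane of rat 1 and the empty-defect tissue of rat 2, none was. DESeq2 called 13 and limb means 12. The globins Hba1 (-1.43 ± 0.60, adjusted p = 0.144) and Hbb (-1.62 ± 0.62, adjusted p = 0.114) were not called. Of 9 megakaryocyte genes 3 fell, namely the platelet chemokine Ppbp, the platelet glycoprotein Gp5 and Nfe2, a transcription factor shared with red cells (-1.45 ± 0.39, adjusted p = 0.0388), while 2 of the 9 had a positive value. Ppbp had 1, 6, 0 and 0 counts in the membrane and 6, 57, 3 and 52 in empty-defect tissue, and Gp5 1, 0, 6 and 5 against 10, 18, 5 and 7, too few for a fold change. The megakaryocyte list as a whole took a median of 0.0566% of the counts in the membrane and 0.0435% in empty-defect tissue. In bone its median was 0.0600% beside the spacer and 0.0412% beside the empty defect, so the median was higher on the spacer side in both tissues. The ranges overlapped in both. They were 0.0246 to 0.117% and 0.0238 to 0.0905% in the defect, and 0.0442 to 0.0714% and 0.0366 to 0.0458% in bone. The list also holds Thbs1 and Vwf, which are shared with the matricellular and endothelial lists, so its share is not that of megakaryocytes alone. Their part in it was not tested. The megakaryocyte count of 3 was 5 with DESeq2, 6 with limma-voom and 1 with limb means. It was 0 without the bone beside the spacer of rat 4 or beside the empty defect of rat 3.

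B cell markers took 0.00539 to 0.0102% in the membrane, 0.0109 to 0.0201% in empty-defect tissue, 0.0378 to 0.0885% beside the spacer and 0.161 to 0.258% beside the empty defect, so the groups did not overlap in either tissue. No marker of the B cell, neutrophil, mast cell or erythroid lists was at 0 in every library of a group. Neutrophil markers took 0.00650 to 0.0435%, 0.0213 to 0.0510%, 0.178 to 0.386% and 0.240 to 0.315% in the same order, with overlap in both tissues. The part of B cell and neutrophil markers in the results for other genes was not tested.

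Myh2, the myosin heavy chain of fast oxidative muscle fibres, had the largest fall among the genes of at least 5 CPM that moved the same way. It read 253, 112, 29.7 and 141 CPM in the membrane and 1369, 2626, 851 and 4150.1 CPM in empty-defect tissue. In bone it read 31.3, 138, 99.8 and 157 CPM beside the spacer and 527, 1653, 356 and 62.7 CPM beside the empty defect. It was lower in the spacer limb in 7 of 8 pairs, the exception being the bone of rat 4 (log2 fold change -3.21 ± 0.64 (SE), adjusted p = 0.0140). Though a fast-fibre myosin, it was counted in the slow-fibre list of 11 genes and was the only 1 called there. The median of that list was -2.25, with -4.01 in the defect and -0.34 in bone. In the same list 8 were called without the bone beside the empty defect of rat 4, 7 with limb means and 10 by DESeq2. Of 14 fast-fibre genes 0 were called by edgeR, 1 had an unadjusted p under 0.05, and DESeq2 called 1 and limma-voom 2, with medians of 0.36 in the defect and -2.82 in bone. Reads shared between the myosin genes make its value uncertain.

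**Figure D5:**
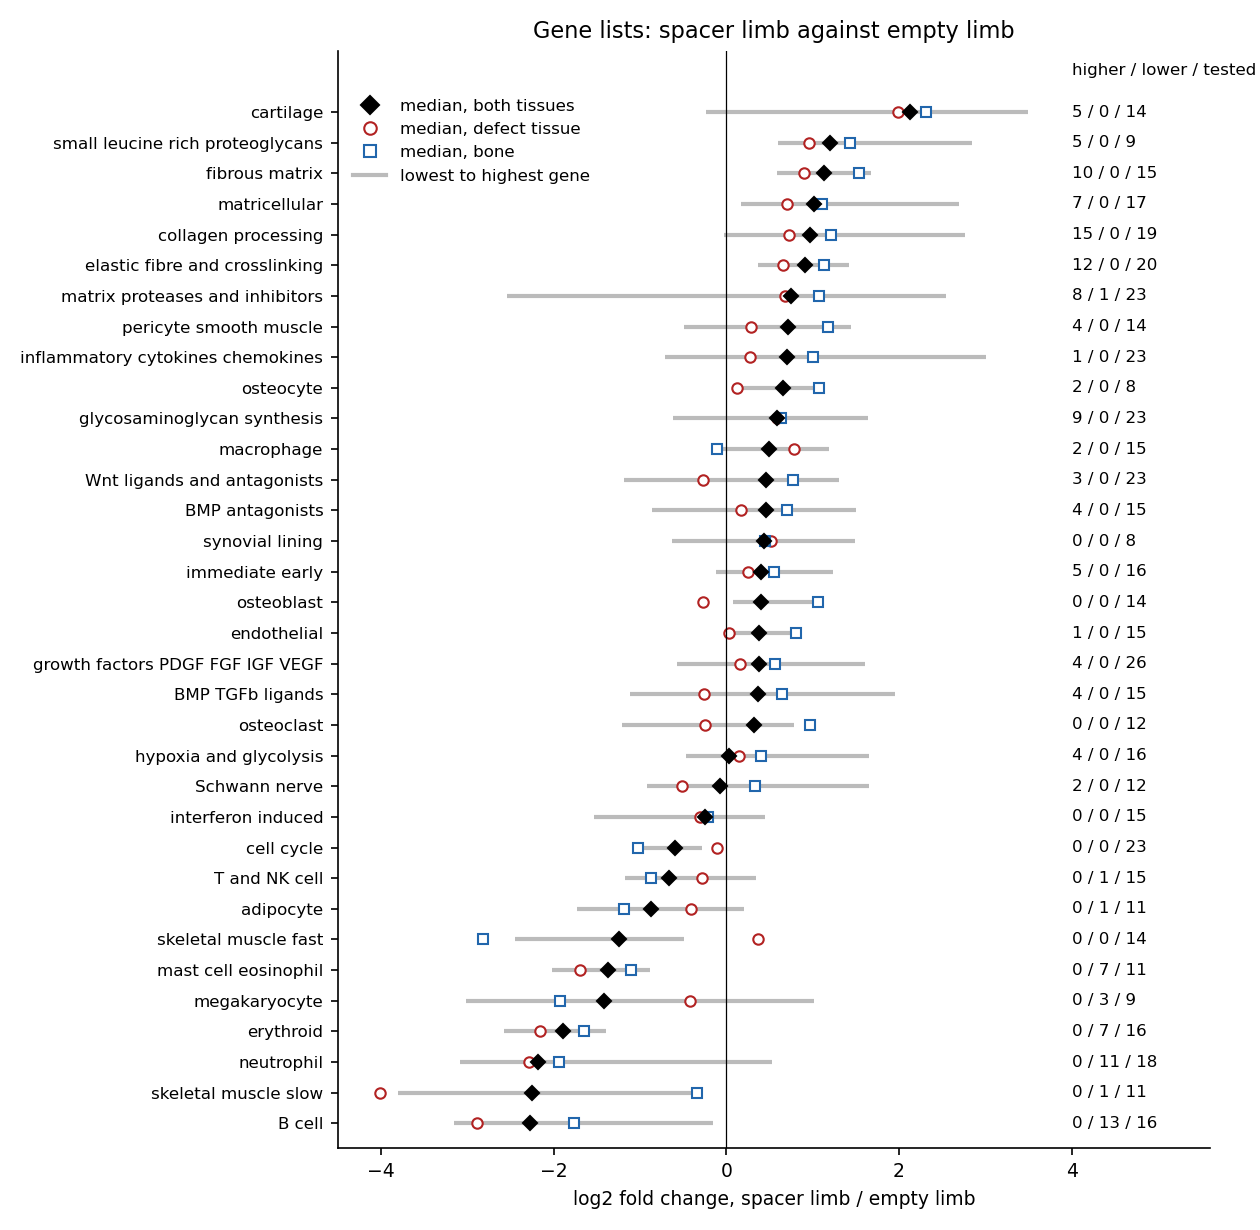
Median log2 fold change of spacer limb over empty limb for 34 gene lists, over both tissues (black diamonds), in the defect (red circles) and in bone (blue squares), with a grey bar from the lowest to the highest gene of the pooled comparison and the number of genes called higher, called lower and tested at the right. Matrix and cartilage lists lie at the top and marrow and muscle lists at the bottom, and the osteoblast, osteoclast and fast muscle lists, for example, have medians of opposite sign in the 2 tissues.

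Of the bone cells themselves, few genes were called, where 5.95% of all genes tested were called higher and 2.64% lower. Of 14 osteoblast genes 0 were called by edgeR (2 had an unadjusted p under 0.05, and DESeq2 and limma-voom each called 1), with medians of -0.27 in the defect and 1.07 in bone. Of 12 osteoclast genes 0 were called by edgeR (3 higher and 1 lower at an unadjusted p under 0.05, and 1 each way by DESeq2 and by limma-voom), with medians of -0.25 in the defect and 0.97 in bone. Sp7, the osteoblast transcription factor osterix, had -0.57 ± 0.60 in the defect and 1.07 ± 0.57 in bone (0.30 ± 0.47, adjusted p = 0.719), and Acp5, the phosphatase of osteoclasts, 0.21 ± 0.44 in the defect and 1.34 ± 0.44 in bone (0.79 ± 0.35, adjusted p = 0.163). Bglap was at 0.13 ± 0.52, adjusted p = 0.899. Of 8 osteocyte genes 2 rose, Cxcr7 (1.04 ± 0.21, adjusted p = 0.0160) and Pdpn (1.05 ± 0.22, adjusted p = 0.0180), which other cells also transcribe, and Dmp1 was at 0.84 ± 0.55, adjusted p = 0.345.

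Of 23 cytokine and chemokine genes edgeR called 1, Ptges, a prostaglandin synthase, as higher (1.55 ± 0.43, adjusted p = 0.0433), and 7 were higher at an unadjusted p under 0.05. DESeq2 called 6 higher and 1 lower, limma-voom 5 and 1, and edgeR 5 higher without the bone beside the empty defect of rat 4. Cxcl2 (2.97 ± 0.88, adjusted p = 0.0534) and Cxcl3 (3.01 ± 0.91, adjusted p = 0.0558) had larger fold changes and were not called. Il1b was at 0.06 ± 0.34, adjusted p = 0.928. Il6 read 1.75, 1.51, 0.828 and 0.158 CPM in the membrane and 2.38, 0.351, 0.727 and 0.327 CPM in empty-defect tissue, and 0.631, 3.24, 7.04 and 0.778 CPM beside the spacer and 0.225, 0.258, 0.283 and 0.0875 CPM beside the empty defect in bone. It did not overlap in bone, overlapped in the defect, and was not called in the pooled test (1.83 ± 0.79, adjusted p = 0.154), with 0.09 ± 0.72 in the defect and 3.69 ± 0.79 in bone and an unadjusted interaction p of 0.00434. All 23 cell cycle genes tested had a negative log2 fold change (median -0.60) and 0 were called by edgeR, while 10 had an unadjusted p under 0.05. DESeq2 called 7 of them lower, limma-voom 4, the muscle covariate 8, and leaving out the empty-defect tissue of rat 1 gave 11. Of 15 interferon-induced genes 0 were called by edgeR (1 higher and 2 lower at an unadjusted p under 0.05, and 2 lower by DESeq2 and by limma-voom), with a median of -0.25. Macrophage genes gave 2 of 15 higher, Cd14 (1.19 ± 0.30, adjusted p = 0.0312) and Csf1r (0.66 ± 0.17, adjusted p = 0.0330), and 0 with limb means. Single or few calls came from fat cell markers (1 of 11 lower, Lpl, -0.87 ± 0.20, adjusted p = 0.0230), endothelial markers (1 of 15 higher, Erg, 0.61 ± 0.13, adjusted p = 0.0171) and Schwann cell markers (2 of 12 higher, Gap43, 1.66 ± 0.35, adjusted p = 0.0170, and Pmp22, 0.74 ± 0.18, adjusted p = 0.0262). Over left-out libraries these counts ran from 0 to 3, from 1 to 5 (the highest without the empty-defect tissue of rat 1) and from 1 to 2, and DESeq2 called 2, 2 and 2 and also 2 Schwann cell markers lower. Of 8 synovial lining genes 0 were called by edgeR (4 higher at an unadjusted p under 0.05, and 2 by DESeq2 and by limma-voom). Over all genes tested, edgeR called 5.95% higher and 2.64% lower. Whether the counts in this paragraph differ from those shares was not tested, so single calls are not results about a cell type.

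Sequences before the start sites of 4 of these genes are shown because the genes moved together with others of their list and hold the motifs compared. They are 250 bases upstream of the RefSeq start, from build GRCr8, which differs from the build of the counts, with matches to any motif searched in capitals.
Ngp (chr8:119272355-119272604, + strand): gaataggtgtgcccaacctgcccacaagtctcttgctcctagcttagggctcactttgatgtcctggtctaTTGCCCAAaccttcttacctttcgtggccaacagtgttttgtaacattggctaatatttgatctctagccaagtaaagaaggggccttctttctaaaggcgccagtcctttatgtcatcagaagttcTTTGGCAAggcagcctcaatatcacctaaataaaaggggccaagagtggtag
Mmp8 (chr8:13008640-13008889, + strand): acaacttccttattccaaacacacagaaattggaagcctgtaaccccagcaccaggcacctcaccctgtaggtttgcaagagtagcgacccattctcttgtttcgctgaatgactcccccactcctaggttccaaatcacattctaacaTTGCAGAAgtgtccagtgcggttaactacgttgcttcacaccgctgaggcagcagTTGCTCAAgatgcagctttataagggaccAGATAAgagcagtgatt
Rag1 (chr3:108383185-108383434, - strand): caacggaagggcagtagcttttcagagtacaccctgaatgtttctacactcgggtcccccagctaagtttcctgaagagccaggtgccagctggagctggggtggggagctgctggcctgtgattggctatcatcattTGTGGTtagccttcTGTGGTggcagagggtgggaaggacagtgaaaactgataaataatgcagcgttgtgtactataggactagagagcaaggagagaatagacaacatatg
Chpf (chr9:84416524-84416773, - strand): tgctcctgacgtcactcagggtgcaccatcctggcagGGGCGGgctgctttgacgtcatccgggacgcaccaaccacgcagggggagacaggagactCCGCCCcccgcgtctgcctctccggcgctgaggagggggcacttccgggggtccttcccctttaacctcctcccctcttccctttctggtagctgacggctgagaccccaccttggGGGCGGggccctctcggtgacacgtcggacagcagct
Binding motifs of 8 factors were searched on both strands. The C/EBP core, TTGCNNAA, occurs 2 times before Ngp and 2 times before Mmp8, and lay before 12.4% of the 169 lower genes with a promoter in the table, 8.97% of the 390 higher ones and 7.89% of the 10295 tested. Mmp8 also holds 1 match to the GATA motif, AGATAA, which lay before 10.1% of the lower, 4.62% of the higher and 6.02% of all genes. Rag1 holds 2 matches to the RUNX motif, TGTGGT, found before 20.7% of the lower, 11.5% of the higher and 11.1% of all genes. Chpf holds 3 matches to the SP1 motif, GGGCGG, found before 45, 60 and 55.8% in the same order. The AP-1 motif, TGANTCA, was found before 2.96, 5.64 and 4.76%. For the TEAD motif, GGAATG, the shares were 11.2, 12.6 and 10.3%, and for PU.1, with GAGGAAGT, they were 3.55, 1.28 and 2.36%. The palindromic EBF1 motif was the rarest, before 0.592% of the lower, 0% of the higher and 0.69% of all genes. The motifs were chosen with the results known. These letters are descriptions of the windows and were not tested, and a match is not a bound site.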

How the data were processed

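RNA of 16 rat tissue samples was sequenced as stranded mRNA libraries, per the labels' protocols. FastQC 0.11.3, TopHat2 2.0.13, Bowtie2 2.2.1 and build rn5 are named in the submitters' processing notes, and DESeq2 is named there without a version. As to which program, annotation and strand option produced the counts, this is not given in the sources used here. Raw counts per gene are what the authors deposited, 40472228 to 76815879 per library. Here the counts were filtered with filterByExpr, scaled by TMM and tested with edgeR 4.0.16 (R 4.3.3) by its quasi-likelihood test, with rat, tissue and limb as terms and 10 residual degrees of freedom. Contrasts within a tissue and the interaction came from a model with 4 groups and the rat. P-values were adjusted by Benjamini-Hochberg over all 12857 genes, with 0.05 as the threshold for a call. DESeq2 1.42.0, limma 3.58.1 and the other settings are given in the closing section. The tests were tried first on simulated data, drawn independently for each library with no rat effect. Such data could not show how calls depend on single rats or on 2 tissues sharing a limb.

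Named genes were the 10 with the largest change in each direction and the 5 with the smallest p among those of at least 5 CPM that moved the same way, plus up to 3 called members, by p, of each list with at least 3 and a panel of 10 genes. Other list members given with values were chosen after their values were seen. The members and lists were chosen with earlier results of these data known. The samples were paired by rat because they came from the same animal by the labels, and the median correlation of deviations was 0.0683 within a rat (-0.345 to 0.496) and 0.00198 between rats. Nothing states separate batches. P-values of the main model measure the spread left between libraries once rat, tissue and limb are fitted. All libraries came from these 4 animals, and both tissues of a limb entered as separate libraries. The fit on limb means took the limb as its unit. It called 351 higher and 214 lower genes, against 765 and 339 in the main model.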

Additional observations from a re-analysis of the deposited data

Results flagged for a closer look

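Among 392 groups of 4 libraries examined, 10 held a library whose gap to the nearest of the others was large for the group's range (Dixon's test, which chance flags in about 1 in 20 groups). In bone beside the spacer, rat 1 was low for 5 genes that were higher in the spacer limb. Megf6 read 18.1 CPM there against 58.2 to 63.4 CPM in the other rats, and Tagln 96.1 against 293 to 326 CPM. Col16a1 read 197 against 522 to 606 CPM, Pcolce 417 against 765 to 856 CPM, and Fstl3 0.934 against 2.44 to 2.96 CPM. The same library had the high erythroid share.

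In empty-defect tissue, Mfap2 read 56.3 CPM in rat 1 against 30.2 to 32.3 CPM in the others, Car9 read 1.62 CPM in rat 2 against 0.957 to 1.02 CPM, and cartilage markers took 0.143% of the counts in rat 3 against 0.0454 to 0.0541%. In bone beside the empty defect, Epyc read 1.95 CPM in rat 4 against 0.121 to 0.202 CPM. In the membrane, Cd177 read 0.0192 CPM in rat 1, which is 1 count, and 0 in the others.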

How the results depend on the processing

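None of the 714 genes that moved the same way took the opposite sign in any of the 30 settings. All of these settings reuse libraries that chose the genes, so the kept sign is no separate support. Of the 714 genes, 0 were called in all 20 fits that left out a rat or a library. DESeq2 called 1246 higher and 977 lower genes, 376 lower in both tissues, 531 in the defect, 1945 in bone and 194 for the interaction. Limma-voom with the limb as a random effect called 1195 and 847, with 4 in the defect and 1071 in bone, and limb means called 351 and 214. The correlation within a limb that limma-voom estimated was -0.103 in the additive model and -0.0679 in the model of 4 groups. A negative value makes the error of the pooled contrast smaller, so that fit was no guard against 2 tissues sharing a limb. Without the replicate block, which drops the pairing by rat, 111 genes were called in the defect, and the other counts stayed within 1.5 times. With the erythroid covariate all counts were 0, and with the muscle covariate there were 769 lower genes, 602 lower in both tissues, 175 in the defect and 1507 in bone. Leaving out a rat gave 0 to 577 higher and 0 to 596 lower genes, 0 to 423 and 0 to 414 in both tissues, 0 to 103 in the defect, 0 to 1760 in bone and 0 to 11 for the interaction. Leaving out a library gave 190 to 1213 higher and 87 to 737 lower genes, 162 to 653 and 81 to 441 in both tissues, 6 to 161 in the defect, 0 to 2465 in bone and 0 to 10 for the interaction.

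Of the 80 named genes that were called, none reversed. Uncalled panel genes did: Bglap was -0.40 with limma-voom and -0.17 with limb means, Sost -0.39 with limb means and -0.24 with the muscle covariate, Il1b -0.12 with the erythroid and -0.20 with the muscle covariate, and Vegfa 0.37 with the muscle covariate. Over the left-out rats and libraries Bglap ran from -0.25 to 0.39, Il1b from -0.28 to 0.52, Sost from -0.52 to 0.39, Sp7 from -0.17 to 0.53 and Vegfa from -0.56 to 0.12. The cause was not tested. Depth limits genes such as Cd177, with 0 or 1 count in each membrane.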

Other observations

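Some genes of the secretory route were called higher in the spacer limb as well. Their lists were put together after the values were seen, so the counts and medians describe the chosen genes only. They are no support for a change of the route as a whole. Of 21 tested genes of p24 cargo receptors, the ER-Golgi intermediate compartment and Golgi traffic 10 rose and 0 fell, 8 in both tissues (median log2 fold change 0.47). The genes that rose include the cargo receptor pair Lman1 and Mcfd2, Tmed9, Surf4 and the Golgi stacking proteins Gorasp1 and Gorasp2. Of 16 tested ER chaperones and KDEL receptors 6 rose and 0 fell (median 0.39), among them P4hb, the shared subunit of prolyl hydroxylase, Pdia4 and the receptors Kdelr1, Kdelr2 and Kdelr3, which return escaped chaperones to the ER.

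Of 12 tested COPII coat genes 3 rose (Sec13, Sec23a and Sar1a), of 10 COPI coat genes 4 (Copg1, Cope, Copz2 and Arf1) and of 10 oligosaccharyltransferase genes 3 (Rpn1, Rpn2 and Ddost), and 0 fell in each. With limb means these 5 counts were 2, 0, 0, 0 and 1, and without rat 2, without rat 3 or with the erythroid covariate all were 0. Over single left-out libraries they ran from 5 to 13, 1 to 7, 1 to 5, 2 to 4 and 0 to 7, with the lowest value of each found without the bone beside the spacer of rat 3 or 4 among others.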
